A study of Drosophila melanogaster with 6 samples.

Results

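The genes described here encode subunits of respiratory complex III, of cytochrome c oxidase (complex IV) and of the mitochondrial ATP synthase in Drosophila melanogaster. They were chosen by symbol and not by a threshold on their values, though earlier results of these data were known. Only probe sets that the platform's table assigns to a single gene were used. The symbols are those that start with UQCR-, COX followed by a digit, ATPsyn or Cyt-c, and RFeSP, ox, levy, cype, blw and sun. The rule found 42 genes of 11982 with a probe set of their own, 10 of complex III, 16 of complex IV and 16 of the ATP synthase. Of these, 28 were main subunits and 14 were paralogues whose names end in L, or in L and a digit. Each gene was read through the probe set with its highest mean over all arrays.

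RNA came from whole heads of adult flies at 2 days (young) and 25 days (aged), 3 arrays per age. The labels give 1 genotype and background for both ages, P{GawB}elavC155 in W*. P{GawB}elavC155 is a GAL4 line whose driver element sits at elav, a gene of neurons, and no group without it was included. Flies were frozen before their heads were taken. Values are log2 levels from RMA, a method that turns the probes of an Affymetrix array into 1 level per probe set, and differences are given as aged minus young. Whether replicate arrays hold separately collected heads is not stated, so the p-values measure only how far these arrays differ, and that spread may be technical.

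Complex III takes electrons from ubiquinol and passes them to cytochrome c, complex IV passes them on to oxygen, and both pump protons out of the mitochondrial matrix. The ATP synthase lets protons back in through its membrane part, turns a central stalk and makes ATP in its catalytic head. The subunits measured here are encoded in the nucleus, and the catalytic core of complex IV and cytochrome b of complex III, encoded in the mitochondrial genome, are not analysed here. Photoreceptors and synapses use much ATP, and nerve tissue draws most of it from this pathway. In flies, several of these subunits have paralogues that are known for expression in the testis.

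Main subunits were lower in aged heads in all 3 complexes. Of the 28, 24 fell, 1 rose (UQCR-11) and 3 did not pass (ox, ATPsynbeta and sun), by limma with Benjamini-Hochberg adjustment over all 18769 probe sets tested. Over all 11982 genes, 10.7% fell and 15.8% rose by the same test. Among the 390 genes whose mean level was 11 or more, a bright range that holds 25 of the main subunits, 22.8% fell, against 23 of those 25. The falls were small. The median difference of the 28 main subunits was -0.42, or a median change of -25.1%, where the median over all genes was 0.00 and that over the 390 bright genes was 0.04. The main subunits varied little within an age, with a median SD of 0.04 in young and 0.06 in aged arrays. All aged arrays lay below all young arrays for 25 of the 28 (all but UQCR-11, ox and sun), while 21.0% of all genes showed this. Among the 390 bright genes 136 did, against 24 of the 25 bright main subunits.

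**Figure D1:**
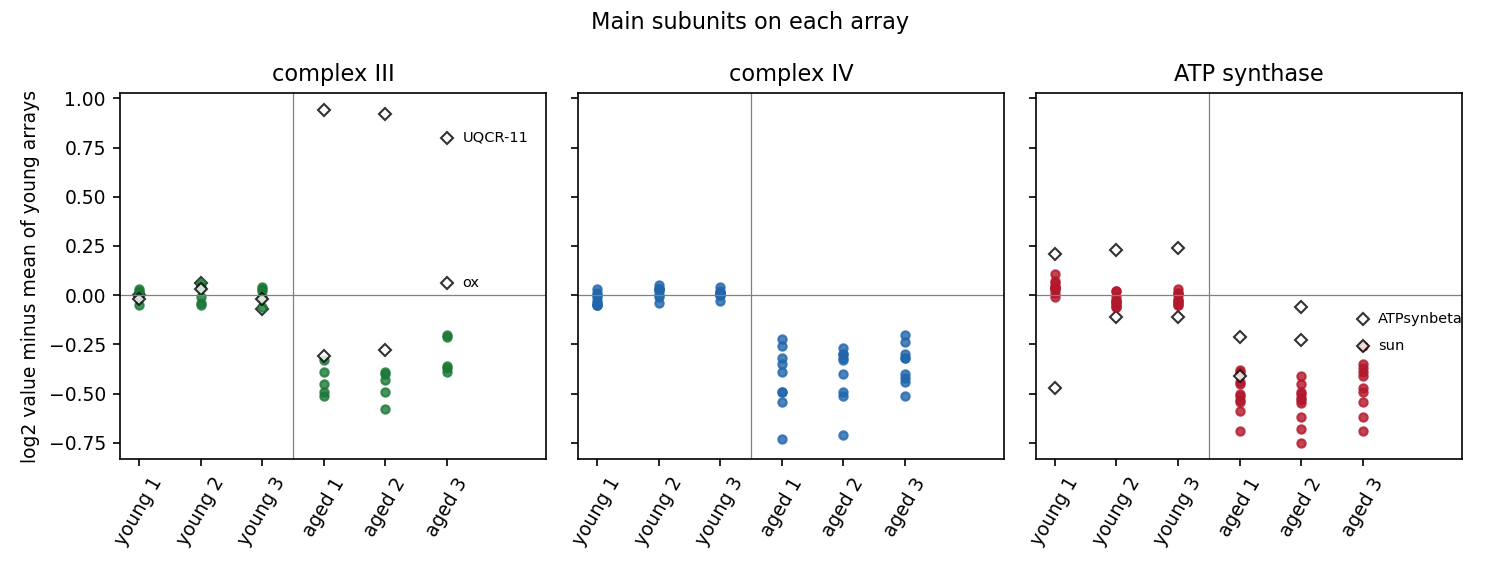
Each point is 1 main subunit on 1 array, as its log2 value minus its mean over the young arrays, in a panel for each complex; open diamonds mark UQCR-11, which rose, and ox, sun and ATPsynbeta, which did not pass. The filled points of the aged arrays all sit below those of the young arrays, while UQCR-11 is higher by 0.89 and ox and sun overlap between the ages.

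The medians of the 28 main subunits were 12.29, 12.29 and 12.31 on the young arrays and 11.90, 11.94 and 11.97 on the aged arrays. Aged replicate 3 was the highest aged array for 21 of the 28. In RNA from whole heads, fewer cells of a type and less RNA per cell cannot be told apart. Fly control transcripts read at both ends, through 5 pairs of probe sets, had a smaller excess of 3' over 5' signal in aged heads. The mean excess was 2.35, 2.60 and 2.57 on the young arrays and 1.96, 2.03 and 1.97 on the aged arrays. Whether labelling or RNA integrity set this excess was not tested. The part of this excess in the members' differences was not tested either. Levels of the main subunits lie near the top of the scale, whose highest value was 13.82, where array signals can be compressed. Leaving out any single array left 17 to 24 main subunits lower.

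**Figure D2:**
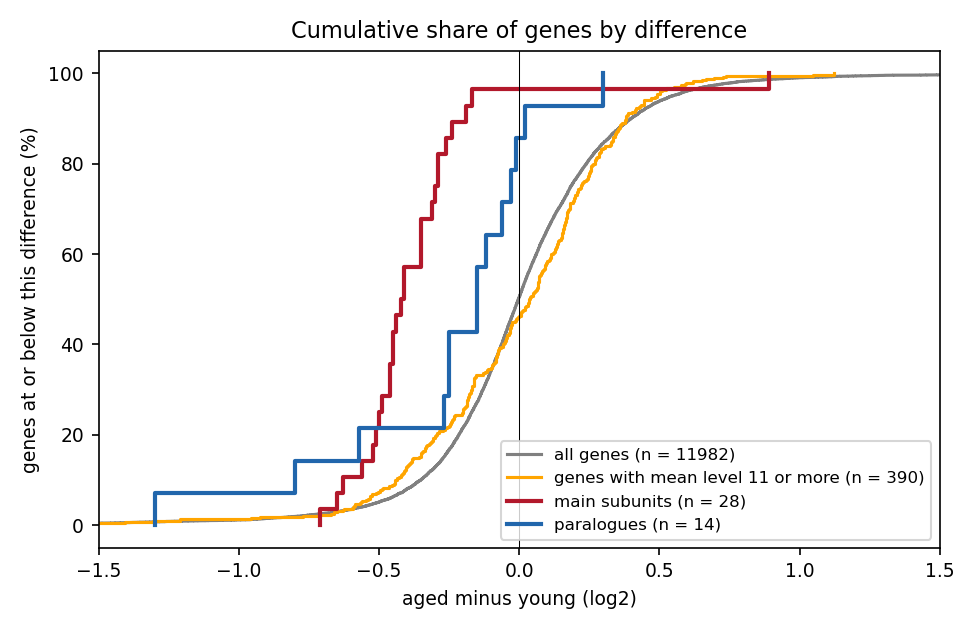
The lines give the cumulative percentage of genes (vertical axis) at or below each difference, aged minus young on the log2 scale (horizontal axis), for all 11982 genes, for the 390 with a mean level of 11 or more, for the 28 main subunits and for the 14 paralogues. The main subunits lie to the left of both backgrounds, with a median of -0.42, apart from 1 gene at 0.89.

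Complex III had 7 main subunits among the members, of which 5 fell, 1 rose and 1 did not pass, with a median difference of -0.35. No probe set was assigned to UQCR-C1, UQCR-C2 or the cytochrome c genes Cyt-c-p and Cyt-c-d alone, so these were not members. The largest fall was that of UQCR-6.4 (CG14482), a small subunit, which read 12.31, 12.40 and 12.38 on the young arrays and 11.85, 11.78 and 11.97 on the aged arrays, a difference of -0.50 ± 0.07 (SE, limma adjusted p = 0.00415). UQCR-Q (CG7580), another small subunit, read 10.12, 10.17 and 10.05 in young heads and 9.62, 9.62 and 9.75 in aged heads, a difference of -0.45 ± 0.07 (adjusted p = 0.00496). In both genes every aged array lay below every young array, by more than the spread within an age.

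UQCR-14 (CG3560), a further small subunit, fell by 0.41 ± 0.06 (adjusted p = 0.00425), from 12.37, 12.33 and 12.33 to 11.89, 11.95 and 11.97. RFeSP (CG7361), the Rieske iron-sulphur protein that accepts the electron from ubiquinol, went from 11.63, 11.58 and 11.66 to 11.23, 11.19 and 11.41, a difference of -0.35 ± 0.08 (adjusted p = 0.0198). Its second probe set gave -0.46 and also passed. Cyt-c1 (CG4769), the haem protein that hands the electron to cytochrome c, went from 12.36, 12.29 and 12.37 to 12.01, 11.94 and 12.14, a difference of -0.31 ± 0.08 (adjusted p = 0.0247). That these differ from the small subunits was not tested, and their 95% intervals (-0.53 to -0.16 and -0.49 to -0.14) overlap that of UQCR-6.4 (-0.67 to -0.32).

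A small complex III subunit, ox (CG8764, oxen), did not pass, at -0.17 ± 0.10 (adjusted p = 0.288, 95% interval -0.42 to 0.07). It read 11.69, 11.74 and 11.69 on the young arrays and 11.40, 11.43 and 11.77 on the aged arrays. Aged replicate 3 was thus the highest of all arrays for ox, and without it the gene passed at -0.29 (adjusted p = 0.0428). Counting paralogues, 6 complex III genes fell, and 3 without young replicate 3 or without aged replicate 2. RFeSP lost its call without young replicate 3, aged replicate 1 or aged replicate 2 (adjusted p = 0.0657 to 0.0808), and Cyt-c1 without young replicate 1, young replicate 3, aged replicate 1 or aged replicate 2 (0.0516 to 0.0929).

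UQCR-11 (CG41623), by its name a subunit of complex III, was the member that rose. Its probe set read 4.93, 4.99 and 4.86 on the young arrays and 5.87, 5.85 and 5.73 on the aged arrays. The difference was 0.89 ± 0.07 (adjusted p = 4.41e-04), or 1.85-fold. The young level is about that of the median probe set (4.92), where part of the signal is background, which compresses a fold. Its paralogue UQCR-11L (CG30354) moved the other way, from 4.93, 5.70 and 5.23 to 4.68, 4.40 and 4.37, a difference of -0.80 ± 0.19 (adjusted p = 0.0227). The log2 ratio of UQCR-11 to UQCR-11L within an array was 0.00, -0.70 and -0.36 on the young arrays and 1.19, 1.45 and 1.36 on the aged arrays, a change of 1.69 (two-sided exact permutation p = 0.10, the smallest that 3 arrays against 3 allow, and 0.186 after adjustment over 13 pairs). The call of UQCR-11 held under all 15 alternatives, with adjusted p of at most 0.00438. That of UQCR-11L was lost without young replicate 3 (adjusted p = 0.0586), aged replicate 2 (0.0802) or aged replicate 3 (0.0800).

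All 9 main subunits of complex IV fell, with a median difference of -0.35 and a range of -0.65 to -0.26. COX5B (CG11015), a zinc-binding subunit in mammals, fell most, from 11.85, 11.78 and 11.83 to 11.09, 11.11 and 11.31. Its difference of -0.65 ± 0.08 (adjusted p = 0.00206) is a change of -36.3%. COX7B (CG7630), a small subunit by its name, fell from 12.57, 12.67 and 12.62 to 12.08, 12.11 and 12.20, a difference of -0.49 ± 0.07 (adjusted p = 0.00329), and its other bright probe set gave -0.38 and passed. COX4 (CG10664), the largest of the nuclear-encoded subunits in mammals, fell from 12.56, 12.63 and 12.65 to 12.12, 12.12 and 12.21, a difference of -0.46 ± 0.06 (adjusted p = 0.00329). For these genes the aged arrays all lay below the young arrays.

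COX7C (-0.44) and COX5A (-0.35), subunits around the catalytic core, fell by intermediate amounts. The smallest falls came from 4 subunits. COX8 (CG7181) differed by -0.29 ± 0.06, from a young mean of 12.27 to an aged mean of 11.98. Cype (CG14028, cyclope), the fly's subunit 6C, read 12.21, 12.29 and 12.28 and then 11.91, 11.96 and 12.02, a difference of -0.30 ± 0.07 (adjusted p = 0.0179). Levy (CG17280), the fly's subunit 6A, whose loss is known to cause neurodegeneration and paralysis in adult flies, read 12.30, 12.29 and 12.29 and then 11.97, 11.97 and 12.09, a difference of -0.29 ± 0.06 (adjusted p = 0.0197). COX7A (CG9603) fell least of the 9, from 12.30, 12.36 and 12.34 to 12.11, 12.06 and 12.03, a difference of -0.26 ± 0.06 (adjusted p = 0.0222). The groups did not overlap for any of the 4, but COX7A kept its call on leaving out young replicate 1 and lost it without any other array (adjusted p = 0.0556 to 0.0796). Levy and cype lost theirs without young replicate 3, aged replicate 1 or aged replicate 2 (0.0572 to 0.0854), and COX8 without aged replicate 2 (0.0598) or aged replicate 3 (0.0502). Counting paralogues, 11 complex IV genes fell, against 7 without young replicate 3 or aged replicate 1 and 6 without aged replicate 2.

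**Figure D3:**
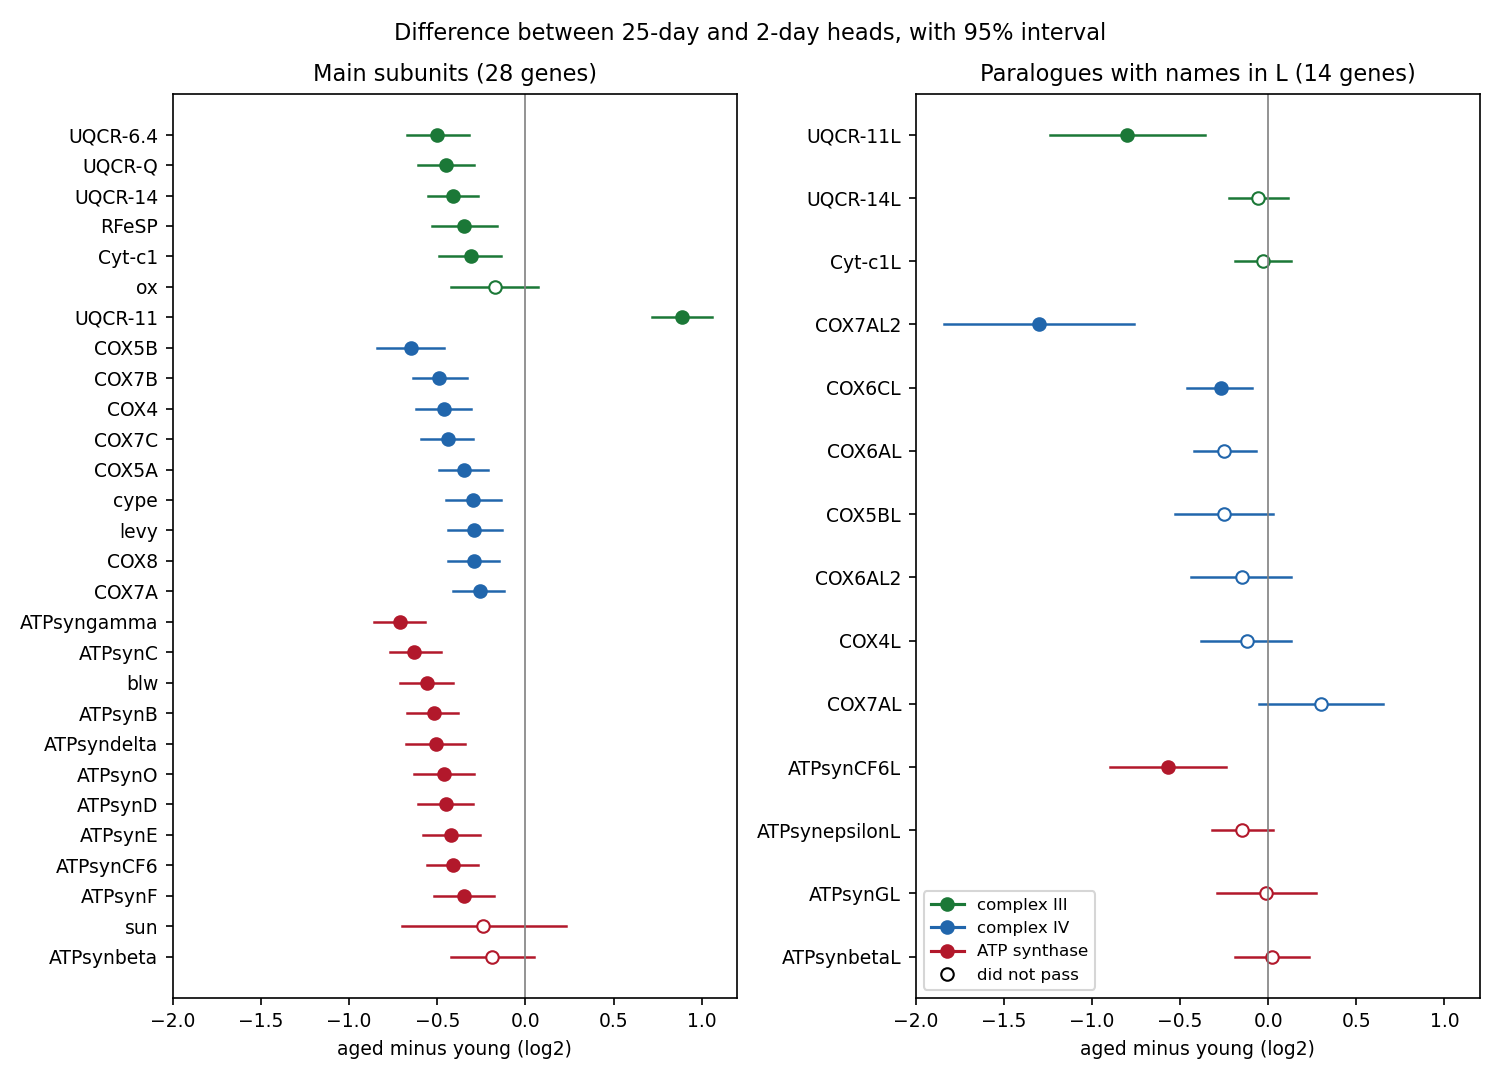
Each point gives a gene's difference, aged minus young on the log2 scale, with its 95% interval from limma as a line; filled points passed and open points did not, and colours mark the complexes. The main subunits (left) run from -0.71 to -0.17 apart from UQCR-11 at 0.89, while the paralogues (right) centre on -0.15 with COX7AL2 at -1.30.

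In the ATP synthase, 10 of 12 main subunits fell and 2 did not pass, with a median difference of -0.46. The catalytic head and central stalk hold the widest range. ATPsyngamma (CG7610), the rotating shaft that turns inside the catalytic head, fell most of all main subunits, from 12.04, 11.96 and 12.01 to 11.31, 11.25 and 11.31. Its difference was -0.71 ± 0.06 (adjusted p = 5.68e-04), a 1.64-fold fall, and its second probe set gave -0.69. Blw (CG3612, bellwether), the alpha subunit, fell from 12.84, 12.76 and 12.82 to 12.28, 12.19 and 12.27, a difference of -0.56 ± 0.06 (adjusted p = 0.00159). ATPsyndelta, of the central stalk, fell by 0.51 ± 0.07.

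The beta subunit, which carries the catalytic sites beside alpha, was lower at both of its probe sets but passed only at the dimmer one. The brighter one of ATPsynbeta (CG11154) read 12.84, 12.52 and 12.52 in young heads and 12.42, 12.40 and 12.51 in aged heads, a difference of -0.19 ± 0.10 that did not pass (adjusted p = 0.235, 95% interval -0.42 to 0.05). Young replicate 1 stood well above the other young arrays there, and without it the difference was -0.08. The dimmer probe set read 10.70, 10.80 and 10.79 and then 10.35, 10.38 and 10.46, and fell by 0.37 ± 0.07 (adjusted p = 0.00897). Sun (CG9032, stunted), the epsilon subunit, was read through a dim probe set with a wide spread. It read 5.46, 6.16 and 6.17 in young heads and 5.52, 5.87 and 5.67 in aged heads, a difference of -0.24 ± 0.20 (adjusted p = 0.438). Young replicate 1 was its lowest array, and without it sun passed at -0.47 (adjusted p = 0.0291).

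All 4 measured subunits of the peripheral stalk, which holds the head still against the rotor, fell (ATPsynB, ATPsynO, ATPsynD and ATPsynCF6, by 0.41 to 0.52). ATPsynB (CG8189) went from 12.70, 12.65 and 12.63 to 12.12, 12.11 and 12.19, and ATPsynCF6 (CG4412, coupling factor 6) from 12.12, 12.13 and 12.09 to 11.72, 11.66 and 11.72 (-0.41 ± 0.06, adjusted p = 0.00391). The aged arrays lay below the young arrays in all 4 genes. ATPsynO differed by -0.46 and ATPsynD by -0.45.

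In the membrane part, ATPsynC (CG1746), whose product forms the proton-carrying ring, fell from 12.98, 12.96 and 13.02 to 12.40, 12.31 and 12.37. Its difference of -0.63 ± 0.06 (adjusted p = 0.00102) was the second largest of the complex. ATPsynE (-0.42) and ATPsynF (-0.35), small membrane subunits, fell less. ATPsynF lost its call without aged replicate 1 or 2 (adjusted p = 0.0594 and 0.0576). Counting ATPsynCF6L, 11 ATP synthase genes fell, against 7 when probe sets marked _s_at or _x_at in their IDs, whose probes may match several genes, were left out. ATPsynC, ATPsynD, ATPsynE and ATPsynF are read only through such probe sets. COX6B and ATPsynG share their probe sets with another symbol each, CG18809 and beat-Vb, and were not members. Those probe sets had means of 12.53 and 12.47 in young heads and 12.06 and 12.00 in aged heads.

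Most paralogues gave little signal. Of the 14, 12 lay below the median level of all probe sets at both ages, where values are mostly background, while 0 of the 28 main subunits did. The exceptions were COX7AL2, above that median at both ages, and UQCR-11L, above that median in young heads. Of the 14 paralogues, 4 fell, 0 rose and 10 did not pass, with a median difference of -0.15, and the 10.7% and 15.8% of all genes that fell and rose stand beside that. Without young replicate 3, aged replicate 2 or aged replicate 3 the number that fell was 1, and without young replicate 2 it was 2. The 2 dim ones that fell were ATPsynCF6L (3.66, 3.96 and 3.83 against 3.48, 2.97 and 3.29, difference -0.57 ± 0.14, adjusted p = 0.0263) and COX6CL (3.05, 3.17 and 3.03 against 2.91, 2.82 and 2.71, difference -0.27 ± 0.08, adjusted p = 0.0469). Neither call was stable. ATPsynCF6L lost its call without replicate 2 or 3 of either age (adjusted p = 0.0531 to 0.0746), and COX6CL without any single array (0.0665 to 0.133). The differences of those that did not pass were 0.30 for COX7AL, 0.02 for ATPsynbetaL and -0.25 to -0.01 for COX5BL, COX6AL, COX6AL2, ATPsynepsilonL, COX4L, UQCR-14L, Cyt-c1L and ATPsynGL. Without young replicate 2 alone, COX7AL passed, at 0.47 (limma adjusted p = 0.0219, against 0.0991 to 0.445 under the other alternatives that kept this array). COX6AL (-0.25, adjusted p = 0.054) passed with arrays centred on their medians (-0.29, 0.0378) and with 1 probe set tested per gene (-0.25, 0.0396). The signs of Cyt-c1L, UQCR-14L and ATPsynGL turned with quantile normalization, and that of ATPsynbetaL with arrays centred on their medians.

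Young replicate 2 was the highest of all 6 arrays, or level with the highest, for 8 of the 14 paralogues, UQCR-11L among them, and the paralogues' median was 3.96 there against 3.47 to 3.66 on the other arrays. How often that array was the highest over all genes, or over dim ones, was not counted. The count is thus not shown to be particular to the paralogues. The same array was the highest for 5 of 8 male germline markers. For bam (2.94 there, at most 2.89 elsewhere) and dj (2.72 there, at most 2.71 elsewhere) it led only slightly, at dim levels. The sperm protein gene Mst98Ca read 5.73 there against 3.87 to 4.49 elsewhere, and betaTub85D, the testis tubulin gene, 5.94 against 4.31 to 4.74. The summed level of the 8 markers ranged from 6.45 to 7.47 in young and from 6.34 to 6.40 in aged arrays on the log2 scale, 0 of the 8 passed between the ages, and the defining markers bam, vas, aly and can stayed between 2.52 and 3.03, near the lowest value of any probe set (2.05). Their part in the paralogues' differences was not tested.

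Within an array, the log2 ratio of main subunit to paralogue could be formed for 13 pairs (ATPsynGL had no measured main subunit). For 7 pairs the ratios of the ages did not overlap, with a two-sided exact permutation p of 0.10, the smallest possible, and 0.186 adjusted over the 13. In COX4, COX5B, Cyt-c1, UQCR-14 and COX7A (against COX7AL) the ratio fell, by 0.28 to 0.57. In UQCR-11 and in COX7A against COX7AL2 it rose, by 1.69 and 1.03. The paralogues in the pairs whose ratio fell lay below the median level of all probe sets at both ages, and none of them passed. With values that are mostly background, those falls cannot be read as a shift between paralogues. A like limit holds for the UQCR-11 pair. The young mean of UQCR-11 (4.93) lay at that median (4.92) and the aged mean of UQCR-11L (4.49) below it. Its rise is thus no clear sign of a shift either. The ratio's change is the main subunit's difference less the paralogue's, and both entered: COX7A differed by -0.26 and COX7AL by 0.30, and ATPsynCF6 by -0.41 and ATPsynCF6L by -0.57, for which the ratio moved by 0.16 (exact p = 0.50).

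COX7AL2 (CG34172), by its name a paralogue of subunit 7A, was the member with the largest difference. It read 11.14, 11.30 and 11.23 in young heads and 9.56, 9.70 and 10.52 in aged heads, a difference of -1.30 ± 0.23 (adjusted p = 0.00814), or a 2.46-fold fall. The log2 ratio of COX7A to COX7AL2 was 1.15, 1.06 and 1.11 on the young arrays and 2.55, 2.36 and 1.51 on the aged arrays. Aged replicate 3 stood apart from the other aged arrays, and without it the difference was -1.60 (adjusted p = 5.39e-04). The call held without each single array (adjusted p of at most 0.0363). Its probe set ID ends in _s_at, so it may be shared with another gene, and no other probe set of the gene was measured.

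Muscle markers were set beside COX7AL2. Of 4 measured on a list of 8, 3 fell, where 10.7% of all genes did. They were the flight muscle actin gene Act88F (-2.17 ± 0.21), the paramyosin gene Prm (-1.28 ± 0.16) and the troponin T gene up (-1.03 ± 0.19). The difference of bt, which encodes projectin, was -0.17 ± 0.20 and did not pass. It read 10.89, 11.11 and 10.70 on the young arrays and 10.52, 10.49 and 11.19 on the aged arrays. Aged replicate 3 was the highest aged array for all 4, as it was for 21 of the 28 main subunits. Prm read 9.25, 9.30 and 9.85 on the aged arrays and Act88F 5.94, 5.79 and 6.54. Young levels of Act88F were 8.08, 8.53 and 8.18. The summed level of the 4 ranged from 12.04 to 12.32 in young and from 11.22 to 11.89 in aged arrays, and none of them was below the median level of all probe sets. The part of muscle RNA in the fall of COX7AL2 was not tested.

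**Figure D4:**
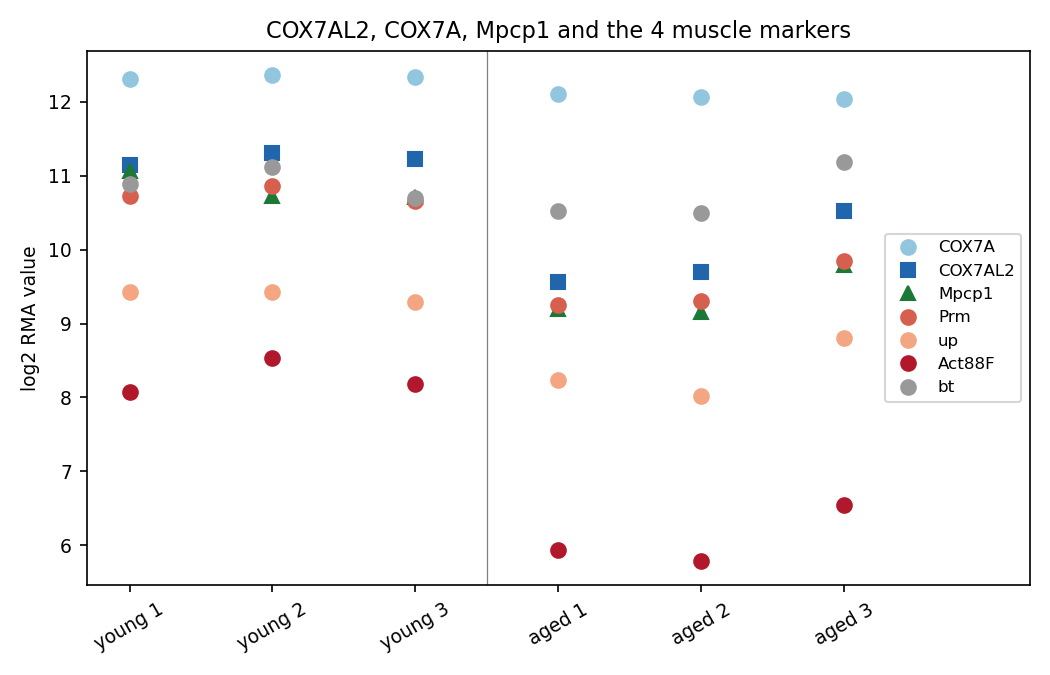
Points give the log2 RMA value (vertical axis) of COX7AL2, of COX7A, of the phosphate carrier gene Mpcp1 and of the muscle markers Prm, up, Act88F and bt on each array. COX7AL2, Mpcp1, Prm, up and Act88F lie lower on all aged arrays, with aged replicate 3 the highest of these, while COX7A falls by 0.26 with no such gap.

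Some of the carriers that work beside the ATP synthase fell too. Of 10 on the list, 5 fell, 0 rose and 5 did not pass, with a median difference of -0.30. Over all genes, 10.7% fell and 15.8% rose. The gene sesB, which encodes the ADP/ATP translocase, read 13.40, 13.39 and 13.33 in young heads and 12.73, 12.73 and 12.77 in aged heads, a difference of -0.63 ± 0.06 (adjusted p = 8.98e-04). Mpcp1, a mitochondrial phosphate carrier gene, fell most, from 11.06, 10.72 and 10.71 to 9.20, 9.16 and 9.79 (-1.45 ± 0.18, adjusted p = 0.00226), with aged replicate 3 the highest aged array, as for COX7AL2. Its paralogue Mpcp2 fell by 0.54 ± 0.06, porin, the outer membrane channel, by 0.50 ± 0.07, and Ant2, the second translocase gene, by 0.85 ± 0.14. The probe sets of sesB, Ant2, Mpcp2 and porin end in _s_at, so they may be shared with other genes. Among those that did not pass, Porin2, Ucp4B and Ucp4C lay below the median level of all probe sets at both ages. Bmcp (0.32 ± 0.13, limma adjusted p = 0.117) and Ucp4A (-0.09 ± 0.07, adjusted p = 0.36) lay above it at both ages. For Bmcp every aged array was above every young array.

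Genes that build or regulate the complexes went both ways. An assembly list of 32 symbols held 16 measured genes, of which 6 fell, 2 rose and 8 did not pass, with a median difference of 0.00. Shares over all genes, 10.7% that fell and 15.8% that rose, stand beside the counts in this paragraph. The rises on this list did not exceed the latter share, nor did those on the mitochondrial genome list below. Surf1 (0.41 ± 0.07), which helps to assemble complex IV, and Coa7 (0.37), named as a complex IV assembly factor, rose. Chchd3 (-0.43) and Opa1 (-0.35), which shape the cristae, fell, as did Coa8 (-0.37) and Cchl (-0.37), which attaches haem to cytochrome c. So did Bcs1 (-0.35), which inserts the Rieske protein into complex III, and Cox10 (-0.33), which takes part in making the haem of complex IV. Of 11 genes that maintain or express the mitochondrial genome, 0 fell, 1 rose (PolG1, 0.33, below the median level at both ages) and 10 did not pass, among them TFAM at -0.02. At an unadjusted limma p under 0.05, 0 of these 11 were lower and 2 higher. Of 3 measured regulators of nuclear genes for mitochondria, 1 rose (Ets97D, 0.35, adjusted p = 0.0443), while ERR (0.34) and ewg (0.02) did not pass. Complexes I and II pass electrons to ubiquinone, which complex III then oxidises. Of 39 genes with symbols that start with ND- or Sdh, 26 fell, 0 rose and 13 did not pass, with a median of -0.34. Among the 30 subunits 25 fell (median -0.37), among 8 paralogues with names in L, all below the median level at both ages, 0 passed limma's adjusted threshold (2 were lower and 0 higher at an unadjusted p under 0.05), and the assembly factor Sdhaf3 fell (-0.31). That the members' falls differ from those of these lists was not tested.

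The fall of the main subunits was set beside markers of the head's cell types. The neuronal active zone gene brp (-0.44), the photoreceptor channel gene trp (-0.33) and the glial genes alrm (-0.48) and Gs2 (-0.38) fell, by amounts within the range of the main subunits. The pan-neuronal gene elav (-0.09), the glial gene repo (-0.03) and the fat body gene apolpp (0.07) did not pass. Differences were negative for 3 neuronal and 4 glial markers. They were positive for 1 of each, nSyb (0.30) and wrapper (0.21), which did not pass. Of 4 neuronal, 2 photoreceptor, 5 glial and 6 fat body markers measured, 1, 1, 2 and 0 fell and 0 rose, with median differences of -0.21, -0.25, -0.03 and -0.21. All 4 haemocyte markers rose, with a median of 0.64. Beside these counts stand the 10.7% of all genes that fell and the 15.8% that rose. Summed levels on the log2 scale ranged from 11.22 to 11.40 in young and from 11.21 to 11.39 in aged arrays for neurons, from 13.17 to 13.29 and from 12.83 to 13.02 for photoreceptors, from 13.04 to 13.15 and from 12.73 to 12.88 for glia, from 14.23 to 14.42 and from 14.03 to 14.31 for fat body, and from 9.55 to 9.63 and from 10.14 to 10.45 for haemocytes. None of the neuronal, photoreceptor, glial, fat body or haemocyte markers was below the median level at both ages. What part a change in cell types has in the members' differences was not tested.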

How the data were processed

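The authors deposited 1 log2 value per probe set and array. The submitters' processing notes list RMA and limma, with version and build not given in the sources used here. By its design RMA corrects background, brings all arrays to a common scale and combines probes, so a change in total mRNA per head is set aside. Array medians lay between 4.85 and 4.93. Controls (183 of 18952 probe sets) were left out, and 13647 of the 18769 tested had 1 symbol. All 42 members were found in RefSeq's gene table under the same symbol (0 changed); no coordinates or sequences are used.

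All 6 arrays were fitted with limma 3.58.1 in R 4.3.3 (lmFit, eBayes, no covariates), with Benjamini-Hochberg adjustment over all probe sets at 0.05. The script was tested on simulated data. A called gene passed this threshold. The SE and 95% interval are limma's moderated ones. Paralogue ratios used a two-sided exact permutation test. No 2 arrays were identical. With 3 arrays per age, precision is limited.

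The members and lists were chosen with earlier results of these data known. Every member is named; full values are given for the 3 largest and the smallest difference of each complex's main subunits, for paralogues and members that passed or rose, and for the main subunits of the paralogues. From lists, up to 3 members per direction that passed were to be named. Others, chosen after their values were seen, are Opa1, Bcs1, Cox10, porin, Mpcp2, Porin2, Bmcp, Ucp4A, Ucp4B, Ucp4C, TFAM, ERR, ewg and the markers. COX6AL and COX6AL2 were paired with levy, a pairing added after the naming rule was written; COX6CL was paired with cype and ATPsynepsilonL with sun. Alternatives were median centring, quantile normalization, limma-trend with a robust prior, array weights, a filter at the median level, leaving out _s_at and _x_at probe sets, testing 1 probe set for each gene, a block for the replicate number, another probe set of the gene and leaving out each array. The joint omission of young replicate 2 and aged replicate 3, and the counts of main subunits and paralogues under every alternative, were added after seeing the data. A planned description of promoter motifs was not run.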

Additional observations from a re-analysis of the deposited data

How the results depend on the processing

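Of 24 main subunits that fell, 17 kept the call under each of the 15 alternatives fitted across all probe sets in which they could be tested, and 30 of 356 calls recomputed that way were lost. These counts leave out the other probe sets of a gene. UQCR-11 and COX7AL2 kept theirs under each alternative that held their probe set. At its other, dim probe set COX7C had the opposite sign and did not pass (0.13, limma adjusted p = 0.402). Leaving out single arrays gave 18 to 27 member genes lower (28 on all arrays), 1 to 2 higher, 3 to 6 of complex III, 6 to 10 of complex IV, 9 to 12 of the ATP synthase, 1 to 3 paralogues, and over all probe sets 925 to 1659 lower and 1377 to 2371 higher (1633 and 2438 on all arrays). When the second young and the third aged array (replicates 2 and 3) were omitted together, the counts were 6 for complex IV, 1 paralogue, 2 members higher, and 1030 lower and 1462 higher over all probe sets; COX7AL was the further member that rose, there and without young replicate 2 alone. Fewer arrays were fitted in these. Paralogues that fell numbered 2 with quantile normalization (the cause was not tested), 1 at or above the median level and 2 without _s_at and _x_at probe sets, where fewer were tested; that last setting left 7 genes of the ATP synthase. With the replicate number as a block, 24 members and 2 paralogues fell. Deviations of same-numbered arrays had r of 0.103, -0.019 and -0.056 over probe sets, against -0.086 to 0.081 for pairs of unlike number. Such values cannot exclude shared handling. The labels link arrays of the same number by that number alone, so the block was not used in the main fit. Signs turned for dim paralogues that passed under none of these: Cyt-c1L (0.01 with quantile normalization, 0.01 without young replicate 3, -0.05 to 0.01 over single arrays), UQCR-14L (0.01 with quantile normalization, 0.0043 with both arrays omitted, -0.09 to -0.02 over single arrays), COX4L (0.01 with both omitted, -0.19 to -0.01 over single arrays), ATPsynGL (0.06 with quantile normalization, 0.05 with array weights, 0.0022 to 0.10 without young replicate 1 or 2 or aged replicate 1, the range over single arrays being -0.12 to 0.10) and ATPsynbetaL (-0.02 with arrays centred, -0.05 to 0.08 over single arrays). The median difference of all probe sets was -0.02, -0.063 with centring and 0.002 with quantile normalization. Probe sets near background limit what can be said of 12 paralogues.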

Other observations

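Young arrays differed in the yolk protein genes, which are made mainly in females: Yp1 read 4.02, 7.76 and 10.17 on young replicates 1, 2 and 3, against 5.87 to 6.47 on the aged arrays, and Yp2 read 3.95, 5.24 and 8.54 against 4.21 to 4.45. Sex is not stated for these flies. Young replicate 1 also stood apart for some ATP synthase genes, in both directions. ATPsynbeta read 12.84 on that array against 12.52 and 12.52 on the other young arrays, ATPsyndelta 11.56 against 11.39 and 11.40, and ATPsynF 12.92 against 12.82 and 12.82, while sun read 5.46 against 6.16 and 6.17.

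A second probe set above the median level was measured for 4 main subunits. Both fell for ATPsyngamma (by 0.71 and 0.69), COX7B (by 0.49 and 0.38) and RFeSP (by 0.35 and 0.46), while for ATPsynbeta only the dimmer one fell (by 0.37, against -0.19 for the other, which did not pass). A probe set that the platform's table gives to both blw and AQP read 9.29, 9.28 and 9.22 in young heads and 8.25, 8.16 and 9.08 in aged heads, with aged replicate 3 far above the other aged arrays. The probe set of blw alone had no such gap, at 12.28, 12.19 and 12.27.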
